A study of Rattus norvegicus with 4 samples.

Results

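The RNA levels of 10 genes of the circadian clock, Clock, Arntl (named Bmal1 in current annotation), Npas2, Per1, Per2, Per3, Cry1, Cry2, Nr1d1 and Dbp, were followed in cerebellum and prefrontal cortex from male rats. The 10 genes were chosen by name, as the core transcription loop of the clock, with earlier results of these data known. They are 10 of 15443 genes that could be named on a 1-colour Agilent array, which hybridises Cy3-labelled RNA of 1 sample to gene probes. Rats were picked out of 106 normal animals by their immobility in the forced swimming test, a measure of depressive-like behaviour, and no drug or mutation is named in the labels. The 4 groups were cerebellum of depressive rats, cerebellum of control rats, prefrontal cortex of depressive rats and prefrontal cortex of control rats, where depressive means rats with depressive-like immobility and control means rats with average immobility. All animals had swum 1 week before and were killed at 14:00 under isoflurane, and the controls shared both. Each group was 1 pool of equal RNA amounts from 4 rats on 1 array, so the spread between animals was not measured. Strain, age, the light schedule and whether both tissues came from the same rats are not given in the sources used here.

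The clock of mammals is a loop of transcription and repression. A dimer of CLOCK, or of its paralog NPAS2, with BMAL1 (the product of Arntl) binds E-box sequences and activates the Per and Cry genes, whose proteins return to the nucleus and repress that dimer. The dimer also activates Nr1d1, whose product REV-ERB alpha represses Arntl, and Dbp, whose product activates genes through D-box sequences. The transcripts of most of these genes rise and fall over the day in brain tissue as elsewhere, and samples of a single clock hour show 1 phase of that cycle and no rhythm.

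Levels are given as scaled signal, where 100 is the 75th percentile of probe signals on the same array. A gene's level is that of its brightest probe. Levels of different genes came from different probes and were not compared with each other. The 75th percentile lay between 3116 and 4369.5 signal units, and between 22206 and 23759 of 30367 probes were well above background. All 10 genes were well above background on all 4 arrays by their brightest probe. Together they had 17 probes with 37 spots, of which 0 were outliers. The scanner files linked to the depressive cerebellum pool and to the control pool of the prefrontal cortex each matched the other sample's column of the deposited value table (correlation of 0.99989 or more across probes) and were therefore exchanged. All 11 cerebellum markers were 2-fold or more higher in cerebellum in both states, and all 10 cortex markers measured were at least 1.2-fold lower there, so the tissues named in the titles and sample characteristics hold after the exchange. The description field of both depressive samples names the other tissue and was not followed. These markers cannot tell a control array from a depressive one. With the files as linked, 0 of the tissue calls below remain, because each tissue pair then holds 2 arrays of 1 tissue.

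Promoter sequences are shown for 4 genes. Per2, Dbp and Ciart, a gene of the wider clock, were picked by the size of their difference. They were higher in depressive pools of both tissues, as were some other clock genes by less. Arntl is the activator gene of the loop. Each sequence is the 250 bases before the annotated start in RefSeq assembly GRCr8, read 5' to 3' on the gene's strand. The capitals mark matches to E-box CACGTG, its variant CACGTT, the D-box TTATGTAA or TTACGTAA, the cAMP response element TGACGTCA and the nuclear receptor core site AGGTCA, searched on both strands. The variant was added after the data had been seen.
Per2, chr9:99496994-99497243, minus strand: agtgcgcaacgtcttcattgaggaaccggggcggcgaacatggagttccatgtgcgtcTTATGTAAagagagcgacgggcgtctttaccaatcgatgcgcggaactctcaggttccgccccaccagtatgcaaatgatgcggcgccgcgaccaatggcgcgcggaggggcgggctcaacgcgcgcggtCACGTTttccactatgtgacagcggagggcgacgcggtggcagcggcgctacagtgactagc
Dbp, chr1:105312006-105312255, plus strand: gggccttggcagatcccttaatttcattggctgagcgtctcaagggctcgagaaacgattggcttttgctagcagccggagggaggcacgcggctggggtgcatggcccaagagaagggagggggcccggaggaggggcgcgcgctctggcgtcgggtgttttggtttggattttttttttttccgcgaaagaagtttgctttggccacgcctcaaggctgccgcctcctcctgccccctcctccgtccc
Ciart, chr2:186112247-186112496, minus strand: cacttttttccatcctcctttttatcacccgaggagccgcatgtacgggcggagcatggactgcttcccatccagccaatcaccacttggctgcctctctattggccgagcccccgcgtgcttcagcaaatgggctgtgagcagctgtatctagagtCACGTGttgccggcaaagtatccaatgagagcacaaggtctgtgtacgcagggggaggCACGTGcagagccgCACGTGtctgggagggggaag
Arntl, chr1:176766078-176766327, plus strand: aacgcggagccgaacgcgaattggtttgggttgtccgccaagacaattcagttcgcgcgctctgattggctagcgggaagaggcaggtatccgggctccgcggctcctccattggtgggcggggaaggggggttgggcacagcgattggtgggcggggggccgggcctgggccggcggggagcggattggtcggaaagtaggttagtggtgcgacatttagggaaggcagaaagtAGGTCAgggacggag

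The Per2 window held a D-box that began 192 bases before the start and a variant E-box that began 62 bases before it. The Ciart window held 3 E-boxes, beginning 93, 35 and 21 bases before the start. The Arntl window held 1 nuclear receptor core site, 15 bases before the start, and the Dbp window held none of the motifs. RefSeq promoter entries matched 9 of the 10 clock genes, with 11 entries in all. Nr1d1, with an E-box in 1 of its entries, was the only gene of these 9 with the letters CACGTG, which is 1 of 11 entries. Cry2 and Nr1d1 held the variant as well. For comparison, of 33469 promoter entries of this length 5.59% held CACGTG, 4.07% CACGTT, 0.932% the D-box, 1.59% the cAMP response element and 14.1% the core site. Per2, Dbp and Ciart were picked by their state differences, so these shares are not a test of them. A match describes the letters of the window and is not a binding site.

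The first comparison set cerebellum against prefrontal cortex. Npas2 was 11.9-fold lower and Cry1 3.61-fold higher in cerebellum of depressive rats, and Npas2 was 14.1-fold lower and Cry1 3.33-fold higher in cerebellum of control rats. Per2 was also lower in cerebellum, by 1.52-fold in depressive and by 1.58-fold in control pools. A difference of 2-fold or more was seen for 2 of 10 clock genes, Npas2 and Cry1, in each state, where 24.3% of genes in depressive pools and 23.9% in control pools differed that much. At 1.2-fold or more there were 6 clock genes in depressive pools (2 higher, 4 lower) and 7 in control pools (3 higher, 4 lower), against 68.5% and 68.6% of all genes. Both shares were near the background. The median log2 difference of the 10 genes was -0.15 in depressive and -0.13 in control pools, beside -0.06 and -0.01 over all genes.

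Because each tissue was measured in both states, a limma fit of tissue with state as a block could be made over the 11617 genes that passed the background filter on every array, with 1 residual degree of freedom and the 2 states taken as replicates. It called 8 of 10 clock genes at an adjusted p under 0.05, 3 higher and 5 lower in cerebellum, where it called 72.8% of all genes. An exact permutation of 2 against 2 arrays could not go below a two-sided p of 0.333. In bulk tissue, fewer cells of a type and less RNA per cell cannot be told apart.

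Among the activators, Npas2, which encodes the CLOCK paralog known from the forebrain, had scaled signals of 16.0 in depressive and 13.8 in control cerebellum, against 189.9 in depressive and 195 in control prefrontal cortex. Both cerebellum arrays were far below both cortex arrays, and the states lay close to each other within a tissue. The limma fit gave a log2 difference of -3.69 ± 0.08 (SE; adjusted p = 0.000248). Clock, which encodes the usual partner of BMAL1, measured 12.1 in depressive and 11.7 in control cerebellum, against 8.87 in depressive and 8.30 in control prefrontal cortex. It rose by 0.47 ± 0.05 in the limma fit (log2; adjusted p = 0.00401). Arntl, which encodes BMAL1, measured 131 in depressive and 135 in control cerebellum, against 114 in depressive and 121 in control prefrontal cortex. The limma difference was 0.18 ± 0.05 (log2; adjusted p = 0.0399). It was not called without the filter on dim probes, where the adjusted p was 0.111 in a range over the alternatives that began at 0.0160.

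The repressors did not move as a group. Cry1, a repressor of the CLOCK and BMAL1 dimer, had scaled signals of 146 in depressive and 148 in control cerebellum, against 40.5 in depressive and 44.5 in control prefrontal cortex. Every cerebellum spot was far above every cortex spot. The limma difference was 1.79 ± 0.06 (log2; adjusted p = 0.000411). Its paralog Cry2 measured 17.5 in depressive and 18.6 in control cerebellum, against 19.95 in depressive and 21.1 in control prefrontal cortex, and its limma difference of -0.19 ± 0.05 (adjusted p = 0.0354) was called in 2 of 7 alternative settings, with adjusted p between 0.0220 and 0.199. Per2, a period gene whose promoter is shown above, was printed on 10 spots. They had a median of 25.1 (lowest 23.5, highest 26.2) in depressive cerebellum and 21.8 (20.5 to 22.7) in control cerebellum, against 37.9 (35.4 to 40.8) in depressive and 34.3 (32.7 to 35.6) in control prefrontal cortex. The spots of the 4 arrays did not overlap between tissues. Per2 fell by 0.63 ± 0.05 in the limma fit (log2; adjusted p = 0.00216).

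Per1, a period gene that responds quickly to stimuli, measured 2.57 in depressive and 2.51 in control cerebellum, against 3.14 in depressive and 3.22 in control prefrontal cortex. Its limma difference was -0.32 ± 0.05 (log2; adjusted p = 0.0110), and it was not called without the filter on dim probes (adjusted p = 0.0526) or with quantile normalization (0.0696), in a range over the alternatives that began at 0.00241. The SE between spots of this dim probe was larger than that of the fit. By it, Per1 was at -0.29 ± 0.22 in depressive and -0.36 ± 0.18 in control pools (log2). Per3, the third period gene, measured 45.7 in depressive and 51.6 in control cerebellum, against 41.7 in depressive and 40.25 in control prefrontal cortex. All cerebellum means were above the cortex means, by 0.13 (log2) in depressive and 0.36 in control pools. The limma difference of 0.24 ± 0.08 was not called (adjusted p = 0.0602) but passed in 6 of 7 alternatives, with adjusted p from 0.00141 to 0.160.

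Nr1d1, the repressor of Arntl, measured 31.1 in depressive and 31.0 in control cerebellum, against 33.6 in depressive and 32.5 in control prefrontal cortex. It was the gene with the narrowest spread over the 4 arrays (SD of 0.06 on the log2 scale, against 2.13 for Npas2), and its limma difference was -0.09 ± 0.05 (adjusted p = 0.188). Dbp, the output activator, measured 1212 in depressive and 1075 in control cerebellum, against 1491 in depressive and 1339 in control prefrontal cortex. Both cerebellum arrays were below both cortex arrays, and Dbp fell by 0.31 ± 0.05 in the limma fit (log2; adjusted p = 0.0103). With quantile normalization the limma difference was -0.10 and not called (adjusted p = 0.127, in a range that began at 0.00360).

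**Figure D1:**
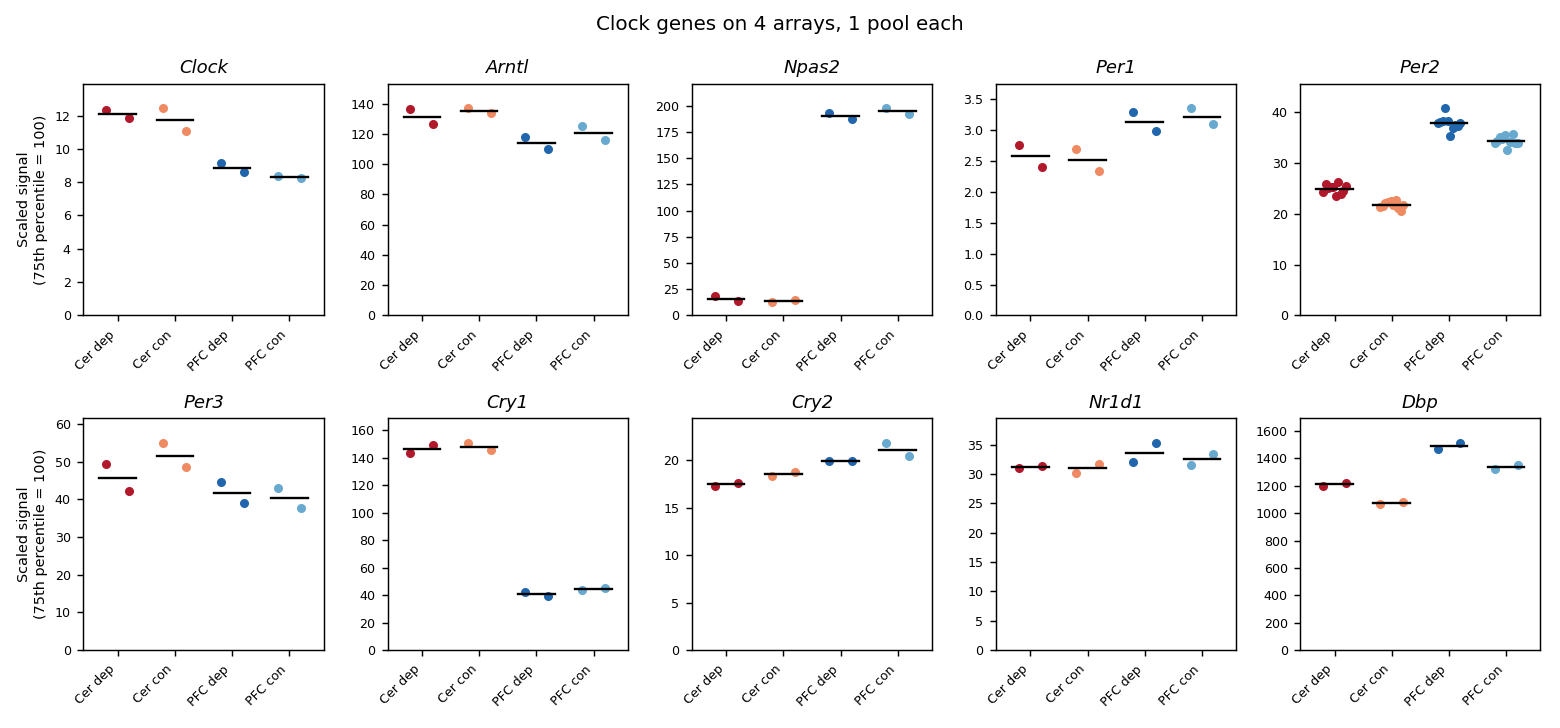
Scaled signal of the 10 clock genes (y axis, linear, where 100 is the array's 75th percentile) in depressive cerebellum, control cerebellum, depressive prefrontal cortex and control prefrontal cortex (x axis). Points are spots of the brightest probe, which are technical, and the bar is their mean on the log scale. Npas2 is at 16.0 and 13.8 in cerebellum and at 189.9 and 195 in prefrontal cortex, and Cry1 shows the opposite order.

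Several genes had a second probe, and not all gave the same difference. The dimmer Clock probe was at -0.08 (log2) between tissues in both states, and with the mean over both probes the limma difference was 0.20 (adjusted p = 0.0357) in place of 0.47. The dimmer Npas2 probe was lower in cerebellum too, but by 2.90-fold in depressive and 2.17-fold in control pools. The 2 dimmer Per3 probes were higher in cerebellum by 1.13 to 1.40 (log2), at most 2.64-fold, where the brightest was within 0.36, and the limma difference with the mean over the probes was 0.93. The Arntl and Dbp probes kept one direction each. Whether probes of a gene read different transcripts was not tested.

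**Figure D2:**
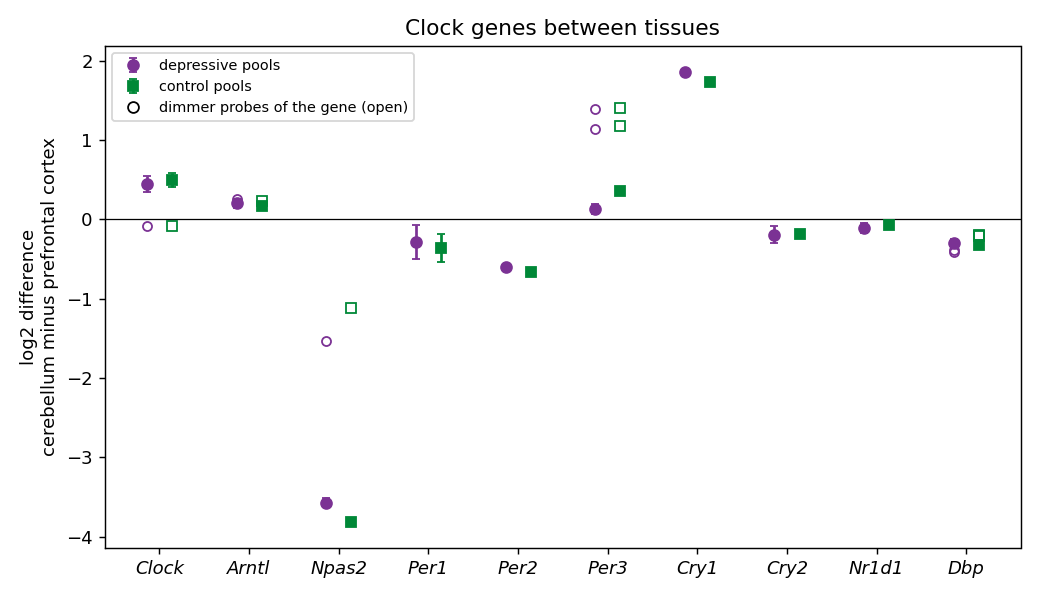
Log2 difference of cerebellum minus prefrontal cortex (y axis) for each clock gene (x axis), in depressive pools (circles) and control pools (squares). Filled symbols are the brightest probe with its SE between spots, and open symbols are the gene's other probes. Npas2 lies at -3.57 and -3.81 and Cry1 at 1.85 and 1.73, and the open symbols of Clock, Npas2 and Per3 lie away from the filled ones.

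Of 43 further genes of the clock, 34 could be matched on the array, and the limma fit called 24 of them, 11 higher and 13 lower in cerebellum, where it called 72.8% of all genes. At 1.2-fold or more 23 of 34 differed in depressive pools and 21 of 34 in control pools, against 68.5% and 68.6% of all genes, with medians of 0.01 and 0.08 (log2). These shares were near or below the background. In the nuclear receptor arm, Rorb, a receptor of the ROR family, was 4.31-fold lower in cerebellum in the fit (adjusted p = 0.000260), and Nr1d2, the paralog of Nr1d1, was 1.67-fold higher (adjusted p = 0.00147). Bhlhe40, a repressor that binds E-boxes, was 4.38-fold lower (adjusted p = 0.000508). Nfil3, which competes with DBP for D-boxes, was 2.31-fold higher (adjusted p = 0.000619), and Tef, a relative of Dbp, was 1.18-fold lower (adjusted p = 0.0238).

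Of the 10 clock kinases 7 were called, 2 higher and 5 lower in cerebellum, near the 72.8% of all genes called. Prkaa1 and Prkaa2, the alternative catalytic subunits of AMP-activated kinase, went opposite ways, with limma log2 differences of 1.26 (adjusted p = 0.00115) and -0.78 (adjusted p = 0.00132). Csnk1e, a casein kinase that phosphorylates PER proteins, was at -0.64 (adjusted p = 0.00214). Among 9 coregulators measured 5 were called, 4 of them higher, a smaller share than the 72.8% of all genes. These included Timeless at 1.08 (adjusted p = 0.000809) and its binding partner Tipin at 0.72 (adjusted p = 0.00169), which act at replication forks, and Nono, a PER-binding RNA protein, at 0.63 (adjusted p = 0.00249). Of 6 clock-controlled outputs 4 were called (72.8% of all genes were), 1 higher and 3 lower, with Noct, which encodes nocturnin, at -1.20 (adjusted p = 0.000622). Btrc, whose product is part of a ubiquitin ligase that acts on PER proteins, was at -0.51 (adjusted p = 0.00308).

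The second comparison set depressive against control rats within each tissue. With 1 array per group it has no replicate check. Differences were small: 0 of 10 clock genes differed by 1.2-fold or more in cerebellum, where 14.1% of genes did, and 0 of 10 in prefrontal cortex, where 10.4% did. Per2 and Dbp were higher in depressive pools in both tissues, Per2 by 1.145-fold in cerebellum and 1.099-fold in prefrontal cortex and Dbp by 1.13-fold and 1.11-fold. The median log2 difference of the 10 genes was 0.02 in cerebellum and 0.01 in prefrontal cortex, beside -0.03 and -0.01 over all genes.

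For Per2 the spot signals given above put every depressive spot above every control spot in cerebellum, while in prefrontal cortex 1 depressive spot lay below 2 control spots. Compared spot by spot at the 10 positions, the log2 difference was above 0 at 10 of 10 in each tissue, from 0.11 to 0.27 in cerebellum and from 0.07 to 0.23 in prefrontal cortex. The mean differences were 0.20 ± 0.02 and 0.14 ± 0.02 (log2, SE between spots, which holds no spread between animals). Dbp differences were 0.17 ± 0.04 in cerebellum and 0.15 ± 0.04 in prefrontal cortex. All 3 Dbp probes were above 0 in both tissues, from 0.02 to 0.17 in cerebellum and from 0.15 to 0.24 in prefrontal cortex. Of 12202 genes measured in both tissues, 2.2% were higher in depressive pools by at least as much as Per2 in both tissues, and 2.29% by at least as much as Dbp. Per2 and Dbp were singled out among the 10 by these same differences, so the shares are not a test of them.

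A limma fit of state with tissue as a block took the tissues as replicates of the state, which the labels do not establish. It called 0 of 10 clock genes and 0% of 11617 genes at an adjusted p under 0.05. At an unadjusted p under 0.05 it listed 2 of 10 clock genes, against 7.79% of all genes. These were Per2, with a limma log2 difference of 0.17 ± 0.05, and Dbp, with 0.16 ± 0.05, each with an adjusted p of 0.638. After normexp background correction the same limma fit called 5 genes of 11617, and 0 clock genes.

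Clock and Nr1d1 were also above 0 in both tissues, Clock at 0.04 ± 0.08 in cerebellum and 0.10 ± 0.08 in prefrontal cortex and Nr1d1 at 0.01 ± 0.05 and 0.05 ± 0.05 (log2, SE between spots). That makes 4 of 10 clock genes higher in both tissues, where 22% of all genes were. Arntl, Cry1 and Cry2 were below 0 in both, 3 of 10 against 35.1% of all genes. Arntl was at -0.04 ± 0.04 in cerebellum and -0.08 ± 0.04 in prefrontal cortex, Cry1 at -0.02 ± 0.04 and -0.13 ± 0.05, and Cry2 at -0.09 ± 0.07 and -0.08 ± 0.06. Of these values, Arntl and Cry1 in prefrontal cortex lay beyond 2 SE of 0. In cerebellum the signs of Arntl, Cry1 and Nr1d1 each turned under at least 1 alternative scale.

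Npas2, Per1 and Per3 had opposite signs in the tissues. Npas2 was at 0.21 ± 0.07 in cerebellum and -0.04 ± 0.04 in prefrontal cortex, but its 2 cerebellum spots gave -0.05 and 0.47, and its dimmer probe gave -0.19 and 0.23. Per3 was at -0.18 ± 0.04 in cerebellum and 0.05 ± 0.05 in prefrontal cortex. Its 3 probes were all below 0 in cerebellum (from -0.18 to -0.07), and in prefrontal cortex 1 of 3 was above 0. Per1 was at 0.04 ± 0.18 and -0.04 ± 0.18. Under alternative scales the sign of Per1 turned in cerebellum and those of Npas2 and Per3 in prefrontal cortex. With 1 array per group, a difference between tissues in the effect of state could not be tested.

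**Figure D3:**
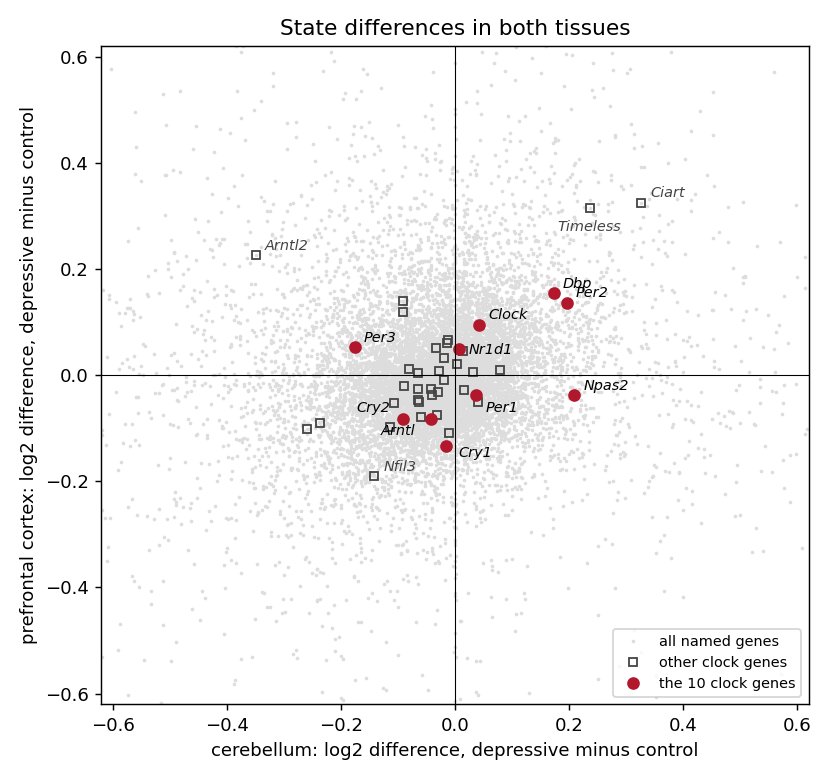
Log2 difference of depressive minus control in cerebellum (x axis) and in prefrontal cortex (y axis) for all genes measured in both tissues (grey dots), the 10 clock genes (red) and the other clock genes (open squares); genes beyond the axes are not drawn. Per2 (0.20, 0.14) and Dbp (0.17, 0.15) lie in the upper right, and Ciart (0.33, 0.33) and Timeless (0.24, 0.32) lie further out.

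The 34 other clock genes had a median log2 difference for state of -0.04 in cerebellum and -0.02 in prefrontal cortex, and 2 of 34 reached 1.2-fold in each tissue, where 14.1% of all genes did in cerebellum and 10.4% in prefrontal cortex. Ciart was 1.25-fold higher in depressive pools in both tissues. Ciart encodes a repressor that binds BMAL1, and its promoter letters are shown above. Its single spot measured 11.7 in depressive and 9.34 in control cerebellum, and 8.91 in depressive and 7.12 in control prefrontal cortex. Of all genes, 0.893% were higher by 1.2-fold or more in both tissues. Ciart was picked from the 34 by the size of its difference, so this share is not a test of it. The limma difference was 0.33 (log2, adjusted p = 0.638). With normexp correction the prefrontal difference was 0.21, under 1.2-fold.

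Timeless, on 10 spots, measured 8.10 in depressive and 6.87 in control cerebellum, and 3.93 in depressive and 3.16 in control prefrontal cortex. These are log2 differences of 0.24 and 0.32, and the second was 0.17 with normexp. Nfil3 measured 35.3 in depressive and 38.9 in control cerebellum, and 15.0 in depressive and 17.2 in control prefrontal cortex, or -0.14 and -0.19 on the log2 scale. In the limma fit Ciart, Timeless and Nfil3 were the 3 of 34 other clock genes at an unadjusted p under 0.05, and 0 of 34 were called after adjustment (adjusted p = 0.638 for each of the 3). Arntl2, a paralog of Arntl, had 2 probes, the brightest of them on 1 spot. It was at -0.35 in cerebellum and 0.23 in prefrontal cortex, with SE between spots of 0.26 and 0.25. Over the main and alternative scales it ranged from -0.35 to -0.03 in cerebellum and from -0.06 to 0.25 in prefrontal cortex.

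The 10 clock kinases were all below 0 in cerebellum, where 60.2% of all genes were. They are part of the 34 other clock genes, of which 26 were below 0. The median log2 difference of the kinases was -0.08, beside -0.03 over all genes. In prefrontal cortex 7 of 10 kinases were below 0, where 52.7% of all genes were, and their median was -0.04, beside -0.01 over all genes. In cerebellum 7 of 10 kinases were below 0 with median scaling and 9 with quantile normalization. Of the 34 genes 16 were below 0 with median scaling and 23 with quantile normalization. The lowest was Csnk1a1, a casein kinase, at -0.24 in cerebellum and -0.09 in prefrontal cortex, and 0 of 10 reached 1.2-fold in either tissue. With normexp 1 of 10 did in cerebellum, Csnk1a1 at -0.27. Crebbp, a histone acetyltransferase that joins the CLOCK and BMAL1 dimer, was at -0.26 ± 0.15 in cerebellum and -0.10 ± 0.18 in prefrontal cortex (log2, SE between spots).

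Markers of some other cells differed between states on the same arrays, and others did not. Of 5 astrocyte markers 0 reached 1.2-fold in either tissue. Of 4 microglia markers 0 did in cerebellum and 1 in prefrontal cortex. In cerebellum 0 of 5 meningeal and fibroblast markers and 0 of 5 oligodendrocyte markers did. Of all genes, 14.1% did in cerebellum and 10.4% in prefrontal cortex. The rats had been perfused with saline, per the labels. All 6 red cell markers were at least 2-fold higher in depressive pools in both tissues, with a summed signal of 13.6 times the array's 75th percentile in depressive and 2.95 times in control cerebellum, and 21.6 times in depressive and 5.24 times in control prefrontal cortex. In prefrontal cortex all 5 meningeal and fibroblast markers were higher in depressive pools (36.9 times in depressive and 18.6 times in control), as were all 5 oligodendrocyte markers (17.7 and 13.8 times), and 4 of 5 choroid plexus markers were lower (a sum over the list of 1.94 and 8.32 times). In cerebellum 5 of 6 choroid plexus markers were higher in depressive pools, while the sum was 171 times in depressive and 176 times in control. Ttr, the marker that was not higher, made up most of this sum. Its scaled signal was 16165 in depressive and 16960 in control cerebellum. In cerebellum 4 of 5 pituitary markers were 2-fold or more lower in depressive pools (0.264 times in depressive and 0.584 times in control). The remaining marker, Pomc, made up nearly all of the depressive sum. Its scaled signal was 25.7 in depressive and 27.8 in control cerebellum. In prefrontal cortex 2 of 3 pituitary markers measured were lower by 1.2-fold or more (0.320 times in depressive and 0.343 times in control). Pomc made up most of both sums, with scaled signals of 31.1 in depressive and 32.1 in control prefrontal cortex. Of 11 cerebellum markers 5 were lower there by 1.2-fold or more and 3 of these by 2-fold or more, among them Pcp2 at -1.23 and Gabra6 at -1.30 (log2; a list sum of 5.14 times in depressive and 5.51 times in control). Grm4 made up most of this sum, with scaled signals of 356 in depressive and 353 in control prefrontal cortex. In cerebellum 3 of 7 cortex markers measured were lower by 1.2-fold or more and 1 was higher, with Crym and Nrgn both at -0.68 (a list sum of 6.98 times in depressive and 7.33 times in control). All 11 cerebellum markers were below 0 in cerebellum, where 60.2% of all genes were. Their median was -0.11 (log2), beside -0.03 over all genes, and 1 was lower by 1.2-fold or more. Of 10 cortex markers 7 were below 0 in prefrontal cortex, where 52.7% of all genes were, and 0 reached 1.2-fold. The part of these cells in the differences of Per2, Dbp and Ciart was not tested.

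**Figure D4:**
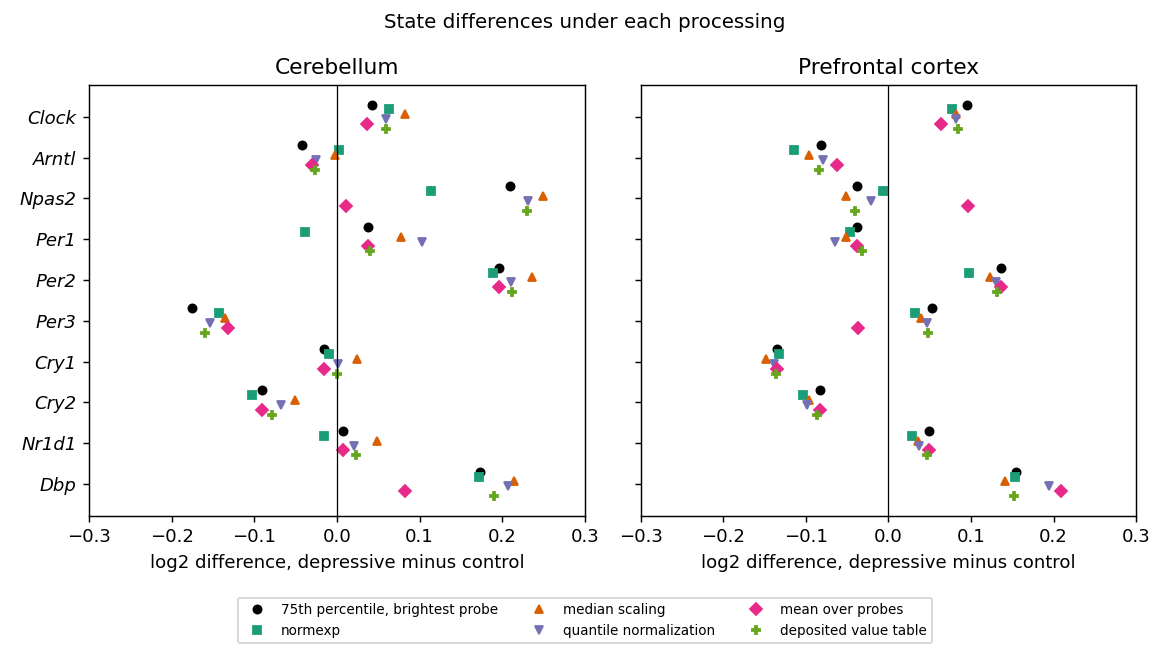
Log2 difference of depressive minus control (x axis) for each clock gene (rows) in cerebellum and prefrontal cortex under 6 ways of processing (symbols). Per2 stays between 0.19 and 0.24 in cerebellum and between 0.10 and 0.14 in prefrontal cortex, and Dbp between 0.08 and 0.21 and between 0.14 and 0.21.

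The genes whose 4 values were most like those of the 3 most variable clock genes were found by distance of centred log2 values among 11616 genes, over 4 arrays. For Npas2 they were Cxadrl1 (distance 0.07), Vstm2b (0.07) and Rgs12 (0.11), each lower in cerebellum by 11.5-fold to 13.8-fold. For Cry1 they were Cybrd1 (0.04), Nppc (0.08) and Selenom (0.09), each higher in cerebellum by 3.10-fold to 3.50-fold. For Per2 they were Rnf126 (0.03), Fermt3 (0.05) and Msantd3 (0.05), which were lower in cerebellum by 1.48-fold to 1.61-fold and higher in depressive pools by 1.06-fold to 1.17-fold.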

How the data were processed

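RNA of 4 pools was hybridised to 4 arrays on 1 slide. Per the file headers, the deposited scanner files hold a background-subtracted intensity per spot from Agilent Feature Extraction 10.7.1.1, protocol GE1_107_Sep09, with an array grid of build rn4. The deposited value table is the same intensity divided by 1 number per array, whose choice is not stated. Each of its columns matched 1 scanner file, and 2 files were exchanged on that basis. Whether the value table or the file links name the states rightly was not tested. The main scale was log2 of the processed intensity, averaged over spots, minus the array's 75th percentile. Spots flagged as outliers were left out, and a probe counted as well above background when 50% of its spots did. Probes were named by RefSeq accession through the GRCr8 table (18355 of 30367), and the brightest probe over the 4 arrays stood for a gene. SE between spots came from spots of like brightness in 20 bins. The fits used limma 3.58.1 in R 4.3.3 with Benjamini-Hochberg adjustment, checked on simulated data. Alternatives were normexp with an offset of 50 on the median spot signal (the files hold no mean signal), median scaling, quantile normalization, the mean over probes, the value table, no filter, no block and files as linked.

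The 10 genes and all gene lists were chosen with earlier results of these data known. Named from each list were up to 4 genes with the largest difference in a pair of arrays, and for the 3 clock genes that varied most the 3 genes most like each. Listed clock genes that were not matched on the array were not analysed here, and some items are not reported here. The number of arrays limits the precision.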

Additional observations from a re-analysis of the deposited data

How the results depend on the processing

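Differences between pools rest on 1 array per group, and spots measure technical error. The labels number no replicates, so no replicate number could serve as a block, and the block in the fits was the other factor, state or tissue. Leaving out an array left no residual degree of freedom, so it was not run. With the scanner files as linked, the clock genes at 1.2-fold or more numbered 0 in both tissue comparisons, 7 (4 higher, 3 lower) for state in cerebellum and 6 (4 higher, 2 lower) in prefrontal cortex. The limma tissue fit then called 0 genes and 0 clock genes, and the state fit 8459 genes and 8 clock genes. Each state pair then held 1 cerebellum and 1 cortex array, so these state counts are differences between tissues. Without the filter on dim probes the tissue fit called 5 clock genes in place of 8. With normexp the state fit called 5 genes in place of 0, and 0 other clock genes reached 1.2-fold for state in prefrontal cortex in place of 2. With the mean over probes 1 other clock gene did so in cerebellum in place of 2. The sign of a clock gene's difference held under all 5 alternative scales for 10 of 10 genes between tissues in control pools, 9 of 10 in depressive pools, 6 of 10 for state in cerebellum and 8 of 10 in prefrontal cortex. Median scaling and quantile normalization moved the median of all genes between tissues in depressive pools by 0.12. Arntl2 between tissues in control pools was at 0.10 and reversed to -1.40 with the mean over probes, and Csnk1d was at -0.01 in the tissue fit and 0.19 with quantile normalization, past the threshold. Alternatives for single genes of the wider clock lists and the variant E-box were chosen after seeing the data. Apart from the exchange of files, the cause of these changes was not tested.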
